A study of Homo sapiens with 4 samples.

Results

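The genes of the mitochondrial protein import machinery were followed in U937 cells labelled sh-ZNF217 and in their NC controls. Members were all protein-coding genes with a symbol beginning TIMM or TOMM, together with SAMM50, MTX1, MTX2, MTX3, PAM16, DNAJC19, GRPEL1, GRPEL2, PMPCA and PMPCB. The rule matched 37 symbols of the GENCODE annotation, of which 36 had a row among the 17656 genes of the table, and TOMM20L had none. The rule reads names and no measured value.

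Nearly all mitochondrial proteins are encoded in the nucleus, made in the cytosol and carried through the mitochondrial membranes by these complexes. The TOM complex is the entry gate of the outer membrane, and the sorting and assembly machinery (SAM) inserts barrel-shaped proteins there. Small TIM chaperones escort hydrophobic proteins across the space between the membranes, the TIM22 complex inserts carriers into the inner membrane, and the TIM23 channel passes proteins with a presequence. The import motor pulls these into the matrix, where a peptidase made of PMPCA and PMPCB removes the presequence.

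U937 is a human monocytic line used as a model of acute myeloid leukaemia. The 4 RNA-seq libraries were 2 labelled sh-ZNF217, described as a knockdown, and 2 labelled NC, described as untreated. The study's methods describe lentiviral pLKO.1 hairpins and also Cas9-mediated knockout lines, and its text uses knockout for its RNA comparison, so the kind of perturbation is given here only as the labels have it. The column names carry the tag D4 in all libraries and ZNFS1 in those labelled sh-ZNF217, and neither tag is explained. No treatment time, clone number or separate culture is stated for these libraries, so p-values measure the spread between libraries, which may be technical.

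ZNF217 itself was measured at 35.8 and 35.0 TPM (a transcript level scaled for transcript length and library total) in libraries labelled sh-ZNF217, against 36.1 and 36.7 TPM in NC (log2 fold change -0.04, limma adjusted p = 0.740). MYC, a transcription factor that drives cell growth, was at 80.0 and 88.2 TPM in libraries labelled sh-ZNF217 and at 158 and 150 TPM in NC (log2 fold change -0.87, limma adjusted p = 0.0034). Mitochondrially encoded transcripts took 12.5% and 12.7% of all TPM in libraries labelled sh-ZNF217, against 9.98% and 10.8% in NC. The 10 monocytic markers all had a row, and LYZ made up most of their sum. That sum was 6752 and 6575 TPM in libraries labelled sh-ZNF217, against 4371 and 4355 TPM in NC. SPI1, CD4, LYZ, CSF1R, ITGAM, FCGR1A and PTPRC were higher in libraries labelled sh-ZNF217 without overlap. CEBPA went the other way, at 237 and 243 TPM in libraries labelled sh-ZNF217 against 297 and 256 TPM in NC. CD33 and MPO overlapped between the groups. MPO, a myeloid granule enzyme, lay between 0.0854 and 0.513 TPM, and none of the markers of erythroid, megakaryocytic, epithelial or fibroblast cells had a row. Of the lymphoid markers, CD3D, CD3E, CD8A and MS4A1 had no row, while the NK marker NKG7 was at 96.9 and 105 TPM in libraries labelled sh-ZNF217 and at 85.2 and 67.5 TPM in NC.

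Import transcripts were modestly lower in libraries labelled sh-ZNF217, and no member reached the size required for a call. Summed over the 36 members, the level was 2909 and 2875 TPM in libraries labelled sh-ZNF217, against 3450 and 3347 TPM in NC. The mean was 2892 ± 24.0 TPM under the sh-ZNF217 label, against 3399 ± 72.8 TPM in NC (SD, n = 2 each), a difference of -14.9% with no overlap between the groups. The sum is given without a test, and an exact permutation test of 2 against 2 libraries could not go below p = 0.333. In bulk RNA, fewer cells of a type and less RNA per cell cannot be told apart.

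The median log2 fold change (libraries labelled sh-ZNF217 minus NC, on log2(TPM + 1)) of the 36 members was -0.17, with quartiles at -0.32 and -0.06, against a median of 0.02 for all 14582 genes tested. A negative value was found in 29 of the 36 members, against 47.5% of all tested genes. Both libraries labelled sh-ZNF217 lay below both NC libraries for 24 members, which is 66.7%, against 28.6% of all tested genes. Both lay above for 2 members, TIMM10B and TIMM23B, against 33.5% of all tested genes. The median absolute log2 difference of the members was 0.0962 between the 2 libraries labelled sh-ZNF217 and 0.114 between the 2 NC libraries. Across the groups it lay between 0.194 and 0.236, above the spread within them. Over all tested genes it was 0.128 and 0.122 within the groups and between 0.243 and 0.253 across them, so the members' median across the groups was the smaller.

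**Figure D1:**
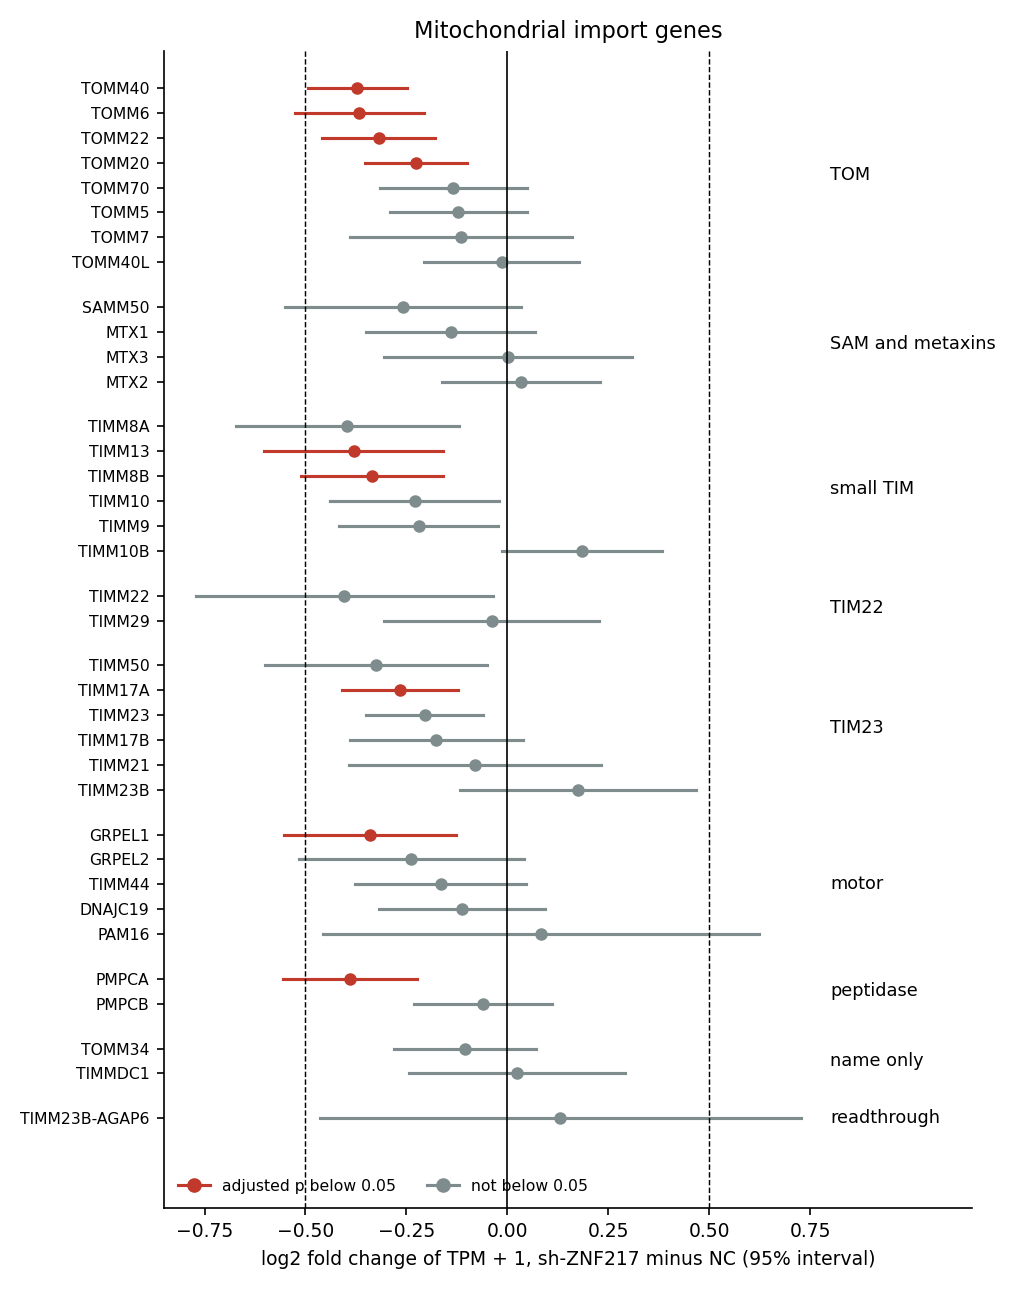
Log2 fold change on log2(TPM + 1), sh-ZNF217 minus NC (x axis), for the 36 import genes (y axis, grouped by complex), with 95% limma intervals from 2 libraries per group; red marks adjusted p below 0.05 and dashed lines mark the fold minimum of 0.5. Every red point lies left of 0 and none passes the dashed line at -0.5.

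A gene was called where the limma adjusted p was below 0.05 and the absolute log2 fold change was above 0.5. By this rule 8.72% of all tested genes were called, 2.46% lower and 6.26% higher. Of the 36 members, 0 were called lower and 0 higher. At an unadjusted p below 0.05 limma gave 15 members (41.7%), against 34.4% of all tested genes. All 15 had a negative fold change, against 15.5% of all tested genes with such a p and a negative fold change, and 0 of the 15 passed the fold minimum. An adjusted p below 0.05 at any size was reached by 9 members, all lower, which is 25% of the members, against 7.11% of all tested genes. No member was higher by that measure, against 9.77% of all tested genes. The 95% interval of the fold change lay within 0.5 of 0 for 24 members, reached below -0.5 for 10 and above 0.5 for 2. The count of 9 depended on each library, since it was 0 without sh-ZNF217 replicate 2, 1 without sh-ZNF217 replicate 1, 2 without NC replicate 1 and 4 without NC replicate 2, where the share of all tested genes was 1.07%, 1.14%, 3.19% and 4.12% in that order. It was also 0 in limma without a mean trend and robust moderation (1.12% of all tested genes) and 14 with a correction for transcript GC content and length (12.2%).

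TPM values share a fixed total, so the larger share of mitochondrially encoded RNA in libraries labelled sh-ZNF217 bears on every other gene. With those genes removed and the columns rescaled, the members' median log2 fold change was -0.14 and their summed level differed by -12.7%. PMPCA, TIMM8B, TOMM22, TOMM40 and TOMM6 then made up the 5 members with an adjusted p below 0.05, against 5.45% of all tested genes. The part of the monocytic markers and of MYC in the members' levels was not tested.

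**Figure D2:**
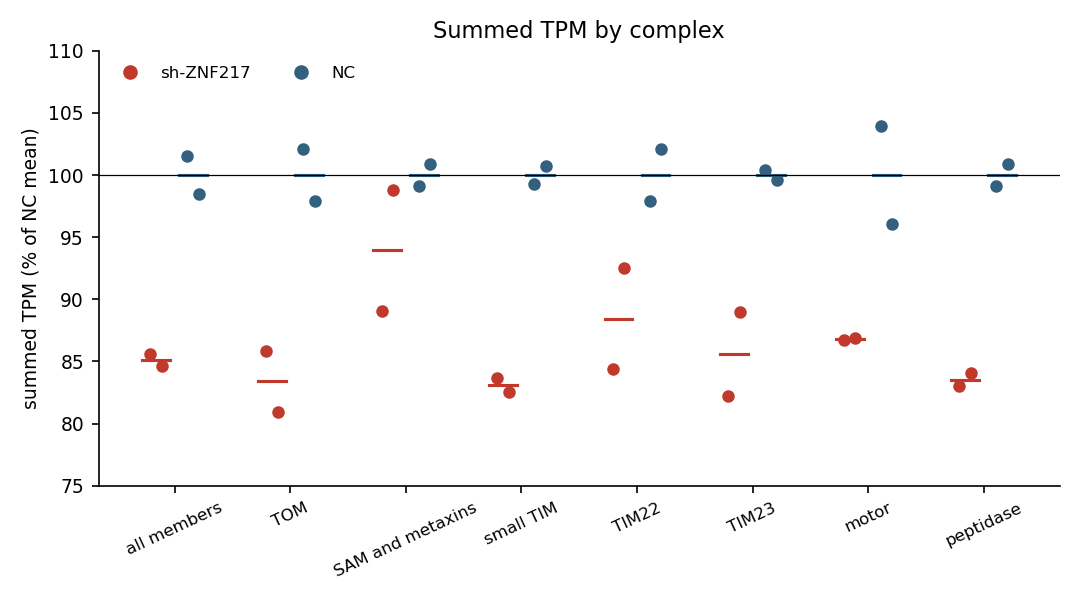
Summed TPM per library as a percentage of the NC mean (y axis) for all import genes and for each complex (x axis), with the libraries labelled sh-ZNF217 left of NC; points are libraries and bars their means (n = 2 each). The NC points lie around 100% and all points of the libraries labelled sh-ZNF217 lie below them, with the SAM and metaxin libraries closest (178 against 179 TPM).

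The TOM complex supplied about as much message as all other complexes together, at 1515 and 1429 TPM in libraries labelled sh-ZNF217 and 1802 and 1728 TPM in NC, a difference of -16.6%. It made up 52.1% and 49.7% of the members' sum in libraries labelled sh-ZNF217 and 52.2% and 51.6% in NC. All 8 of its genes had a negative fold change, against 47.5% of all tested genes. Of the 8, 4 had an adjusted p below 0.05, against 7.11% of all tested genes that were lower by that measure.

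TOMM40 (ENSG00000130204, chr19:44890569-44903689, plus strand, hg38) forms the channel through the outer membrane. It was at 152 and 153 TPM in libraries labelled sh-ZNF217, against 197 and 198 TPM in NC. The replicates of each group were within 2 TPM of each other and the groups lay far apart. This gave a log2 fold change of -0.37 (SE 0.05) with a 95% interval from -0.49 up to -0.25, and the smallest limma adjusted p among the members, 0.011.

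The receptors of the complex take up precursor proteins from the cytosol. TOMM20 (ENSG00000173726, chr1:235109341-235128837, minus strand), which binds presequences, was at 189 and 183 TPM in libraries labelled sh-ZNF217, against 220 and 215 TPM in NC. The log2 difference was -0.23 ± 0.05 (SE, limma adjusted p = 0.038). TOMM22 (ENSG00000100216, chr22:38681957-38685421, plus strand), a receptor that also holds the complex together, was at 118 and 115 TPM in libraries labelled sh-ZNF217 and at 149 and 142 TPM in NC. Neither receptor overlapped between the groups, and the log2 difference of TOMM22 was -0.32 ± 0.06 (SE, limma adjusted p = 0.021). TOMM70, the receptor for carriers and other hydrophobic precursors, was at 76.7 and 78.3 TPM in libraries labelled sh-ZNF217 and at 80.6 and 89.8 TPM in NC. With a log2 difference of -0.13 ± 0.07 (SE, limma adjusted p = 0.258), it did not pass the test.

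TOMM5, TOMM6 and TOMM7 are the small subunits of the TOM complex. TOMM6 was the most abundant member, with 18.3% of the members' mean sum. It was at 532 and 476 TPM in libraries labelled sh-ZNF217, against 656 and 643 TPM in NC, and the groups did not overlap (log2 fold change -0.37 ± 0.06, SE, limma adjusted p = 0.021). TOMM6 shares exon sequence with another gene on its own strand, which can divide its reads. Exon bases were shared with another annotated gene by 19 of the 36 members. For 9 of these a gene on the same strand was involved, among them TOMM5, TOMM40L and SAMM50. TOMM7 was at 231 and 198 TPM in libraries labelled sh-ZNF217 and at 253 and 212 TPM in NC, so its groups overlapped. TOMM5 had a log2 difference of -0.12 (limma adjusted p = 0.267). TOMM40L, a close relative of the channel protein, was at 47.5 and 43.5 TPM in libraries labelled sh-ZNF217 and at 47.0 and 44.9 TPM in NC (log2 fold change -0.01, 95% interval -0.21 to 0.18).

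**Figure D3:**
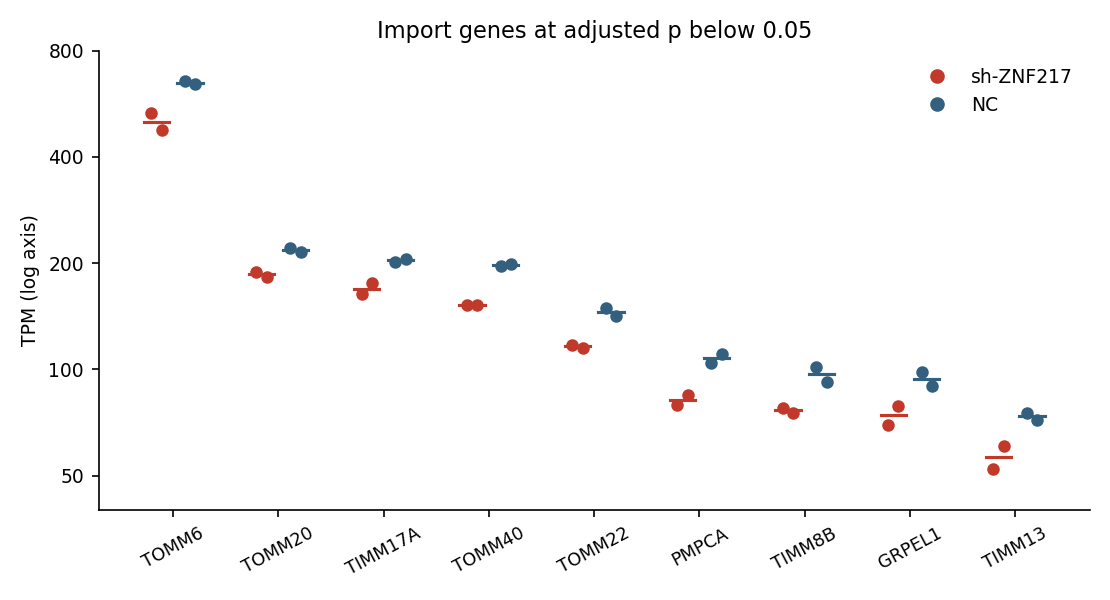
TPM (log axis) of the 9 import genes with a limma adjusted p below 0.05, ordered by their level in NC, with the libraries labelled sh-ZNF217 left of NC; points are libraries and bars their means (n = 2 each). For each gene both libraries labelled sh-ZNF217 lie below both NC libraries, from 532 and 476 TPM against 656 and 643 TPM for TOMM6 to 52.3 and 60.8 TPM against 75.4 and 72.0 TPM for TIMM13.

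The promoters of the members were read to see what these genes share besides their function. RefSeq promoter windows (GRCh38.p14, 250 bases before to 50 after the start) were found for 33 of the 36 members, without GRPEL1, TIMM8B and TOMM5, and TIMM23B and TIMM23B-AGAP6 share a window. The letters CCGGAAG, the core of sites for ETS-family factors such as GABPA, were searched on both strands. They stood in 17 of the 33 windows (51.5%), against 10.7% of all 27305 windows and 21.0% of the 8944 windows of tested protein-coding genes. GABPA was at 30.0 and 28.7 TPM in libraries labelled sh-ZNF217 and at 26.1 and 27.9 TPM in NC (log2 fold change 0.12, limma adjusted p = 0.377). Below are 120 bases that end right before the annotated start, written in the direction of the gene. They are given for every member whose stretch held these letters and overlapped no annotated exon. These were 2 receptor genes and 2 members with fold changes near 0. Capitals mark CCGGAAG or its reverse complement.
TOMM20: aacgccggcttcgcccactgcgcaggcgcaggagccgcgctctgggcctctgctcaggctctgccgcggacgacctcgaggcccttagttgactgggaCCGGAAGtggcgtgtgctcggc
TOMM70: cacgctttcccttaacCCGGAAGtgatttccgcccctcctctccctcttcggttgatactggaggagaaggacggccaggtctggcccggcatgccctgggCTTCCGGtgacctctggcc
TIMM29: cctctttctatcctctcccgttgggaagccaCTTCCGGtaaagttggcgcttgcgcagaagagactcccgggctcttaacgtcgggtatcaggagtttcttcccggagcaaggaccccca
TIMMDC1: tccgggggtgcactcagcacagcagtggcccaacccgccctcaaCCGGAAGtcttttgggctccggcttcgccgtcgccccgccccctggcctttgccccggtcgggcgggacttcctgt
The TOMM20 bases lie at chr1:235128838-235128957 on the minus strand, those of TOMM70 at chr3:100401090-100401209 on the minus strand, those of TIMM29 at chr19:10928691-10928810 on the plus strand and those of TIMMDC1 at chr3:119498427-119498546 on the plus strand. Within the 120 bases TOMM20, TIMM29 and TIMMDC1 hold the letters once each and TOMM70 holds them at 2 places. The window of TIMMDC1 holds a further match that begins at -122 from the start and is cut by the end of the stretch. TOMM20 alone of these 4 had an adjusted p below 0.05. Members with the letters had a median log2 fold change of -0.11 (n = 17, 4 with an adjusted p below 0.05) and those without a median of -0.20 (n = 16, 3 with an adjusted p below 0.05). Of all tested genes, 7.11% were lower by that measure. The 17 count the shared window for both TIMM23B and TIMM23B-AGAP6, whose log2 fold changes were 0.18 and 0.13. These matches describe letters in a window and no binding was measured.

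Other letters were searched in the same way. CACGTG, the E-box read by MYC, stood in 4 of 33 windows (12.1%), against 10.6% of those of tested protein-coding genes, and GGGCGG, read by SP1, stood in 21 (63.6%), against 70.8%. ATTGG, read by NF-Y, stood in 12 (36.4%), against 37.1%. None of these letter sets lies within another. A longer motif of YY1 stood in 3 windows (9.09%), against 3.18%, and one of NRF1 in 0 windows, against 2.47%. The NRF1 motif was searched as an exact string of 10 letters, so variants of its site were not counted. A count of 0 therefore does not show that such sites are absent.

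The sorting and assembly machinery differed least among the complexes, at 161 and 178 TPM in libraries labelled sh-ZNF217, against 179 and 182 TPM in NC (-6.05%). SAMM50, the channel protein that folds barrels into the outer membrane, was at 36.2 and 44.6 TPM in libraries labelled sh-ZNF217 and at 50.8 and 45.9 TPM in NC. Its log2 fold change was -0.26 with a 95% interval of -0.55 to 0.03 (limma adjusted p = 0.186). The metaxins, which partner with it, had log2 fold changes of -0.14 for MTX1, 0.03 for MTX2 and 0.00 for MTX3. MTX2 was at 70.0 and 79.4 TPM in libraries labelled sh-ZNF217 and at 72.1 and 73.5 TPM in NC, so its 2 groups overlapped. MTX3 was nearly level, at 8.25 and 8.30 TPM in libraries labelled sh-ZNF217 and at 8.23 and 8.29 TPM in NC.

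The small TIM chaperones stood at 297 and 293 TPM in libraries labelled sh-ZNF217, against 353 and 358 TPM in NC (-16.9%). This difference was close to those of the TOM complex (-16.6%) and the presequence peptidase (-16.5%). In 5 of the 6 genes both libraries labelled sh-ZNF217 lay below both NC libraries, against 28.6% of all tested genes. TIMM13 and TIMM8A form one chaperone, whose best known client is TIMM23. TIMM13 (ENSG00000099800, chr19:2425625-2427586, minus strand) was at 52.3 and 60.8 TPM in libraries labelled sh-ZNF217, against 75.4 and 72.0 TPM in NC (log2 fold change -0.38 ± 0.09, SE, limma adjusted p = 0.042). TIMM8A, mutated in a syndrome of deafness and dystonia, was at 20.3 and 17.2 TPM in libraries labelled sh-ZNF217 and at 24.1 and 25.7 TPM in NC. Its log2 fold change of -0.40 was as large as that of TIMM13, but its limma adjusted p was 0.064. Its paralogue TIMM8B (ENSG00000150779, chr11:112084800-112086798, minus strand) was at 78.0 and 75.4 TPM in libraries labelled sh-ZNF217 and at 102 and 92.4 TPM in NC (log2 fold change -0.34 ± 0.07, SE, limma adjusted p = 0.032). TIMM13 and TIMM8B each share exon bases with a gene on the other strand, and whether strand was used in counting is not given in the sources used here.

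TIMM9 and TIMM10, which form the other main chaperone of this space, had log2 fold changes of -0.22 and -0.23 with limma adjusted p of 0.117 and 0.120. TIMM10B, which docks that chaperone on the TIM22 complex, stood apart in sign. It was at 28.3 and 28.6 TPM in libraries labelled sh-ZNF217, against 24.3 and 25.5 TPM in NC, with no overlap. The log2 fold change was 0.19 (95% interval -0.01 to 0.38, limma adjusted p = 0.167), so it did not pass the test, and TIMM10B shares exon bases with another gene on its strand.

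The TIM22 complex was the least abundant, at 18.9 and 20.7 TPM in libraries labelled sh-ZNF217, against 21.9 and 22.9 TPM in NC (-11.6%). TIMM22, its channel, had the largest negative fold change of any member. It was at 5.33 and 6.29 TPM in libraries labelled sh-ZNF217 and at 8.10 and 7.88 TPM in NC. A log2 difference of -0.40 came with a 95% interval of -0.77 to -0.04 and a limma adjusted p of 0.120. TIMM29, a subunit found in animals, was at 13.6 and 14.4 TPM in libraries labelled sh-ZNF217 and at 13.8 and 15.0 TPM in NC (log2 fold change -0.04), and its groups overlapped.

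The TIM23 channel stood at 438 and 474 TPM in libraries labelled sh-ZNF217, against 535 and 530 TPM in NC (-14.4%). TIMM17A (ENSG00000134375, chr1:201955503-201970664, plus strand), a channel subunit, was at 164 and 175 TPM in libraries labelled sh-ZNF217, against 202 and 206 TPM in NC (log2 fold change -0.27 ± 0.06, SE, limma adjusted p = 0.034). Its paralogue TIMM17B was at 49.2 and 55.2 TPM in libraries labelled sh-ZNF217 and at 61.5 and 56.6 TPM in NC (log2 fold change -0.18, limma adjusted p = 0.212). TIMM17A was thus the more abundant of the pair in every library, and it alone had an adjusted p below 0.05.

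TIMM23, the other core channel subunit, was at 108 and 115 TPM in libraries labelled sh-ZNF217 and at 127 and 129 TPM in NC (log2 fold change -0.20, limma adjusted p = 0.067). TIMM50, the receptor that receives presequences from TOM, was at 65.6 and 81.7 TPM in libraries labelled sh-ZNF217 and at 89.8 and 94.3 TPM in NC. Neither overlapped between groups, yet the spread of TIMM50 was wide and its log2 difference of -0.33 had a limma adjusted p of 0.102. TIMM23B, a near copy of TIMM23 on the same chromosome, was at 16.6 and 16.5 TPM in libraries labelled sh-ZNF217 and at 15.8 and 13.4 TPM in NC (log2 fold change 0.18, limma adjusted p = 0.347). Reads can be divided among TIMM23, TIMM23B and the readthrough gene TIMM23B-AGAP6 (2.58 and 2.27 TPM in libraries labelled sh-ZNF217 and 1.70 and 2.61 TPM in NC), so their separate values are uncertain. TIMM21, which links TIM23 to TOM, was at 34.9 and 30.1 TPM in libraries labelled sh-ZNF217 and at 37.9 and 31.1 TPM in NC, with overlap (log2 fold change -0.08).

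The import motor stood at 210.3 and 211 TPM in libraries labelled sh-ZNF217, against 252 and 233 TPM in NC (-13.2%). GRPEL1 (ENSG00000109519, chr4:7058671-7068085, minus strand), the nucleotide exchange factor of the motor's HSP70, was at 69.8 and 78.7 TPM in libraries labelled sh-ZNF217, against 98.6 and 89.8 TPM in NC. The log2 difference was -0.34 ± 0.09 (SE, limma adjusted p = 0.0495), just inside the threshold. Its paralogue GRPEL2 had a log2 fold change of -0.24 at a lower level, 19.9 and 18.2 TPM in libraries labelled sh-ZNF217 and 24.5 and 21.0 TPM in NC (limma adjusted p = 0.198). TIMM44, the motor's anchor on the channel, was at 52.7 and 54.8 TPM in libraries labelled sh-ZNF217 and at 56.5 and 64.6 TPM in NC (log2 fold change -0.17, limma adjusted p = 0.232). The J-protein DNAJC19 and its partner PAM16 had log2 fold changes of -0.11 and 0.08. DNAJC19 was at 35.1 and 33.0 TPM in libraries labelled sh-ZNF217 and at 38.4 and 35.4 TPM in NC. PAM16 shares exons with the readthrough gene CORO7-PAM16 and varied most between replicates, at 32.7 and 25.9 TPM in libraries labelled sh-ZNF217 and at 34.0 and 22.1 TPM in NC.

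The presequence peptidase works as a pair of unlike subunits, and its genes differed in their measurements. PMPCA (ENSG00000165688, chr9:136410630-136427992, plus strand), which recognises the substrate, was at 79.2 and 84.4 TPM in libraries labelled sh-ZNF217, against 104 and 111 TPM in NC. PMPCA had a log2 difference of -0.39 ± 0.07 (SE, 95% interval from -0.56 up to -0.22, limma adjusted p = 0.020). PMPCB, the catalytic subunit, was at 63.8 and 60.3 TPM in libraries labelled sh-ZNF217 and at 66.6 and 62.9 TPM in NC, with overlapping groups. Its log2 fold change was -0.06 with a 95% interval of -0.23 to 0.11 (limma adjusted p = 0.584). The ratio of PMPCA to PMPCB was 1.24 and 1.40 in libraries labelled sh-ZNF217, against 1.56 and 1.76 in NC. PMPCB shares exon bases with other genes on both strands, which can bear on its reads. With the GC and length correction the 2 genes lay closer. PMPCA was then at -0.38 (limma adjusted p = 0.012) and PMPCB at -0.21 (limma adjusted p = 0.070).

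**Figure D4:**
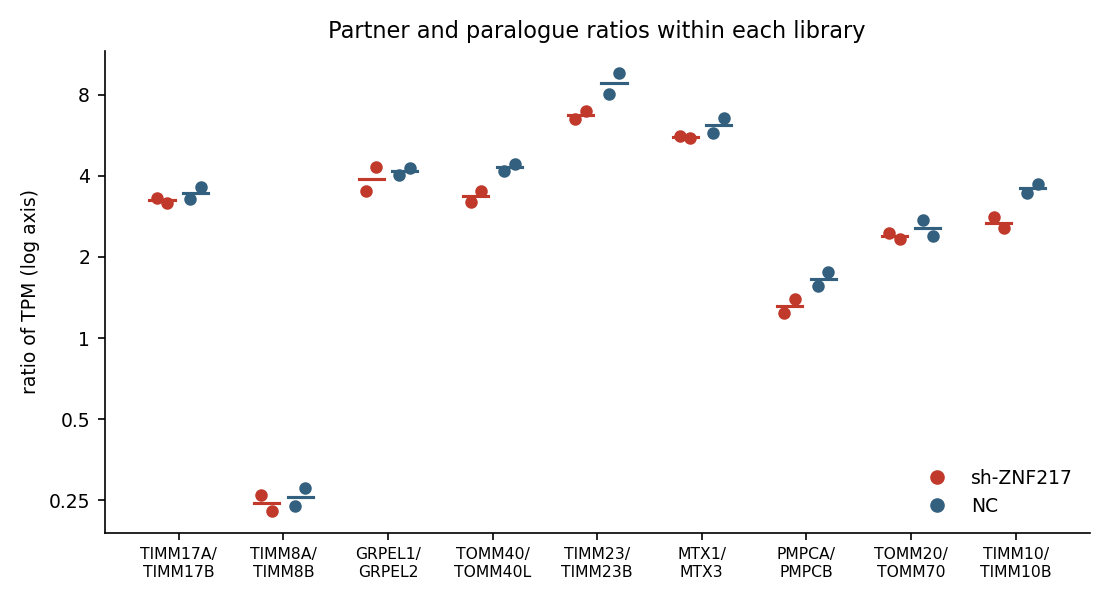
Ratio of TPM within each library (log axis) for 9 pairs of partners or paralogues (x axis), with the libraries labelled sh-ZNF217 left of NC; points are libraries and bars their means (n = 2 each). The ratios TOMM40/TOMM40L, TIMM23/TIMM23B, MTX1/MTX3, PMPCA/PMPCB and TIMM10/TIMM10B do not overlap between the groups, while the other 4 do.

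Ratios within a library do not depend on the library's scaling, though they can move with the GC and length correction. In 5 of the 9 pairs compared, both libraries labelled sh-ZNF217 had a lower ratio than both NC libraries. TOMM40 stood at 3.20 and 3.51 times TOMM40L in libraries labelled sh-ZNF217, against 4.18 and 4.42 times in NC. TIMM10 stood at 2.81 and 2.55 times TIMM10B in libraries labelled sh-ZNF217, against 3.46 and 3.73 times in NC. The pairs TIMM17A with TIMM17B, TIMM8A with TIMM8B, GRPEL1 with GRPEL2 and TOMM20 with TOMM70 overlapped. The ratios are given as descriptions and were not tested, and no share over pairs of all genes was computed. The pairs PMPCA with PMPCB, TOMM20 with TOMM70 and TIMM10 with TIMM10B were added to those planned. With the GC and length correction the log2 fold change was -0.04 for MTX1 and -0.19 for MTX3, which reverses their order. The order within TOMM40/TOMM40L, TIMM23/TIMM23B, PMPCA/PMPCB and TIMM10/TIMM10B was kept.

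A pair of members carry the family's name but have other known roles. TIMMDC1, an assembly factor of respiratory complex I, was at 72.3 and 68.7 TPM in libraries labelled sh-ZNF217 and at 76.9 and 62.6 TPM in NC. TOMM34, a cytosolic co-chaperone, was at 51.4 and 53.8 TPM in libraries labelled sh-ZNF217 and at 58.5 and 54.7 TPM in NC (log2 fold change -0.10, limma adjusted p = 0.355). Together they differed by -2.56%, less than the spread of the NC libraries.

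Members of high level tended to have the more negative fold changes. Spearman's rho across the 36 genes was -0.41 between the log2 fold change and the mean level, -0.18 for transcript GC content and 0.13 for transcript length, given as a description because genes share their libraries and are not independent. The members' transcripts were short, with a median length of 1806 bases against 3253 for tested protein-coding genes, and their median GC content was 47.2% against 48.4%. The members lay on 18 chromosomes, with at most 5 on any of them.

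Of 33 further import genes listed by role, 32 had a row, without DNAJC15, and all 32 were tested. Their median log2 fold change was -0.23, with 26 of 32 negative, against 47.5% of all tested genes. TRAP1, a matrix HSP90, was the one gene called lower, at 109 and 115 TPM in libraries labelled sh-ZNF217, against 174 and 170 TPM in NC (log2 fold change -0.62 ± 0.06, SE, limma adjusted p = 0.0048), beside 2.46% of all tested genes. The log2 fold change of TRAP1 was -0.60 without NC replicate 1, -0.63 without NC replicate 2 and -0.58 without sh-ZNF217 replicate 1. In the same order HSPD1 was at -0.52, -0.44 and -0.50, and HSPE1 at -0.30, -0.51 and -0.46. DNLZ, a partner of the motor, was at -0.0066 without NC replicate 1 and at -0.94 without NC replicate 2.

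Adjusted p below 0.05 at any size was reached by 7 of the 32 in the lower direction and by 1 in the higher. Of all tested genes, 7.11% were lower and 9.77% higher by that measure. Without sh-ZNF217 replicate 2 TRAP1 alone was left below 0.05, and without sh-ZNF217 replicate 1 TRAP1 and HSPD1 were, with none higher in either case. The matrix chaperonin that folds imported proteins was among them. HSPD1 was at 960 and 925 TPM in libraries labelled sh-ZNF217, against 1276 and 1349 TPM in NC (log2 fold change -0.48, limma adjusted p = 0.00615). Its lid HSPE1 was at 485 and 451 TPM in libraries labelled sh-ZNF217, against 666 and 577 TPM in NC (log2 fold change -0.41, limma adjusted p = 0.029). HSPA9, the HSP70 of the import motor that GRPEL1 serves, was at 388 and 366 TPM in libraries labelled sh-ZNF217, against 451 and 460 TPM in NC (log2 fold change -0.27, limma adjusted p = 0.026). The motor HSP70 and both parts of the chaperonin were thus lower, with no overlap between groups for any of the 3. Among all tested genes 28.6% were lower without overlap.

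The prohibitins PHB1 and PHB2 form a ring in the inner membrane. PHB1 was at 177 and 182 TPM in libraries labelled sh-ZNF217, against 228 and 231 TPM in NC (log2 fold change -0.35, limma adjusted p = 0.013). PHB2 was at 271 and 287 TPM in libraries labelled sh-ZNF217, against 354 and 371 TPM in NC (log2 fold change -0.38, limma adjusted p = 0.014). CHCHD3, a subunit of the complex that shapes cristae and contacts SAM, was at 132 and 133 TPM in libraries labelled sh-ZNF217, against 156 and 173 TPM in NC (log2 difference -0.31, limma adjusted p = 0.034). MTCH1, an outer membrane insertase, was higher, at 158 and 158 TPM in libraries labelled sh-ZNF217, against 123 and 120 TPM in NC (log2 fold change 0.37, limma adjusted p = 0.012). The disulfide relay, which traps the small TIM proteins between the membranes, had CHCHD4 at 49.1 and 45.8 TPM in libraries labelled sh-ZNF217 and at 61.2 and 54.0 TPM in NC (log2 fold change -0.27, limma adjusted p = 0.087). GFER, which reoxidises it, was at 15.2 and 16.1 TPM in libraries labelled sh-ZNF217 and at 18.9 and 20.2 TPM in NC (log2 fold change -0.30, limma adjusted p = 0.090).

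The import genes were set beside other nuclear genes for mitochondria. Their median log2 fold change of -0.17 stood beside -0.25 for 78 mitochondrial ribosomal proteins and -0.17 for 38 nuclear complex I subunits. The share with an adjusted p below 0.05 and a lower level was 25% for the import genes, 24.4% for the ribosomal proteins and 28.9% for the complex I subunits. The ribosomal proteins held 6 genes called lower (7.69%) and complex I held 2 (5.26%), against 0 among the import genes and 2.46% of all tested genes. The 37 mitochondrially encoded genes had a median of 0.25. Differences between these sets were not tested.

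**Figure D5:**
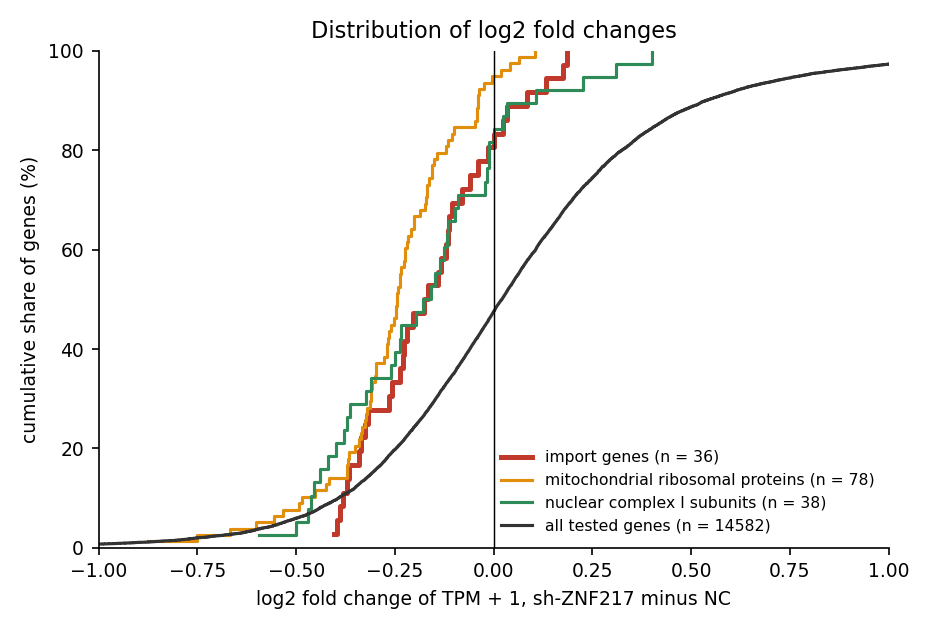
Cumulative share of genes (y axis, %) by log2 fold change on log2(TPM + 1), sh-ZNF217 minus NC (x axis), for the 36 import genes, 78 mitochondrial ribosomal proteins, 38 nuclear complex I subunits and all 14582 tested genes. Over most of the range the 3 mitochondrial sets lie left of all tested genes, with medians of -0.17, -0.25 and -0.17 against 0.02, and the lowest import gene is at -0.40.

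Some member loci have annotated pseudogenes that could take reads. Of 36 pseudogenes named for members, 6 had a row, from TOMM20, TOMM40 and MTX1. TOMM40P1, TOMM40P2 and TOMM40P4 lay at or below 1.41 TPM in every library, far under TOMM40. MTX1P1 was at 15.5 and 14.8 TPM in libraries labelled sh-ZNF217 and at 24.4 and 17.3 TPM in NC without overlap, beside 46.2 and 45.9 TPM for MTX1 in libraries labelled sh-ZNF217 and 47.7 and 54.3 TPM in NC, so reads divided between these could bear on MTX1, which was not tested. TOMM20P4 was at 11.3 and 9.47 TPM in libraries labelled sh-ZNF217 and at 9.95 and 15.0 TPM in NC, with overlapping groups.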

How the data were processed

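Total RNA of U937 cells was extracted with Trizol and made into TruSeq libraries. The submitters' processing notes name HISAT2 (version 2.0.5) and hg38, to which the authors aligned their reads. Quantifier, annotation, strand setting and depth were not given in the sources used here, so no counting interval was computed. The header of the deposited table names no unit, and its values were taken as TPM because columns sum to 998932 to 999282, and short mitochondrial genes have values like those of longer genes on the same transcript (MT-ATP8 to MT-ATP6, 0.888 in value and 0.304 in length). The study's methods call the measure FPM.

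Symbols and positions came from GENCODE (16143 of 17656 identifiers matched). Genes with at least 1 TPM in at least 2 libraries were tested (14582, leaving out 3074) with limma (version 3.58.1, R 4.3.3) on log2(TPM + 1), with trend and robust moderation, adjusting p by Benjamini-Hochberg across these genes. A fold change on this scale understates that of low genes. A gene was called at an adjusted p below 0.05 with an absolute log2 fold change above 0.5. The procedure was tested on simulated data.

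Groups followed the labels. Same-numbered libraries did not deviate together (correlation -0.0053), so replicate numbers were not used as pairs. Values in each library are given for members with an adjusted p below 0.05, for the channel, receptor, motor and peptidase subunits, for members of opposite sign without overlap and for paralogue pairs. Among other import genes, those with an adjusted p below 0.05 and HSPA9, CHCHD4 and GFER are given. Members and gene lists were chosen with earlier results of these data known. Figures were drawn with matplotlib (version 3.10.9). The 15 alternatives varied the pseudocount, filter, scaling, moderation, GC and length correction, replicate block and libraries.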

Additional observations from a re-analysis of the deposited data

How the results depend on the processing

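No import gene was called in either direction under any of the 15 alternatives, and the members' median log2 fold change stayed negative, between -0.23 and -0.14. The number of members lower at an adjusted p below 0.05 was 9, and moved to 5 without mitochondrially encoded genes, to 0 in limma without trend and robust moderation and to 14 with the GC and length correction. The share of all tested genes moved with it, to 5.45%, 1.12% and 12.2%, beside 7.11%. With the replicate block it was 5 (4.77% of all tested genes), and 14 with the block and the GC and length correction together (11.3%). With the block 1049 genes were called in all, against 1272 without it, and 1003 were called in both, and the numbers do not pair the samples. Leaving out 1 library gave 0 to 4 members (1.07% to 4.12% of all tested genes), with the lone library assumed to vary like the other group.

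The summed member level differed by -16.9% with median-of-ratios scaling and by -12.7% without mitochondrially encoded genes, beside -14.9%. The count of called genes was 723 in limma without trend and robust moderation, and 430 to 1029 with 1 library left out. Other import genes called lower numbered 2 with the filter at 5 TPM, with median-of-ratios scaling, with protein-coding genes alone, with the GC and length correction, and with that correction and the replicate block. They numbered 1 to 3 with 1 library left out. The median of all tested genes was -0.0096 with median-of-ratios scaling and -0.0423 with the GC and length correction, with or without the replicate block.

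Signs turned in members with fold changes near 0. With median-of-ratios scaling MTX3 was at -0.0278 and TIMMDC1 at -0.0096. Without mitochondrially encoded genes TOMM40L was at 0.0212. With the GC and length correction, with or without the replicate block, TIMM29 was at 0.0477, MTX3 at -0.19, TIMMDC1 at -0.09 and MTX2 at -0.0567. With 1 library left out, the values ran from -0.24 to 0.0128 for TOMM7, from -0.22 to 0.0600 for TIMM21, from -0.0766 to 0.0479 for TOMM40L, from -0.0026 to 0.0065 for MTX3, from -0.0785 to 0.34 for TIMM23B-AGAP6, from -0.0933 to 0.0162 for TIMM29, from -0.12 to 0.17 for TIMMDC1, from -0.22 to 0.38 for PAM16 and from -0.0559 to 0.12 for MTX2. The cause was not tested. Read depth is unknown, so no limit from counting can be given.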
